A study of Homo sapiens with 30 samples.

Results

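The 10 genes described here encode the enzymes that build the carbohydrate part of globo-series glycolipids and gangliosides in human embryonic stem (hES) cells. They were selected by symbol from the 28307 genes listed for each library, and all 10 symbols were listed for all 30 libraries. ST8SIA1 had no counts in some of the naive libraries. The list was drawn up as makers of stage-specific glycolipid antigens, with values of these libraries already known, so their levels in naive and primed cells are given as a description, without a test.

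Glycosphingolipids are made by adding sugars to ceramide in the Golgi, and each enzyme sets the substrate of the next. UGCG adds glucose to ceramide and B4GALT6, like its close relative B4GALT5, adds galactose to give lactosylceramide, the branch point of the pathway. A4GALT turns lactosylceramide into Gb3, the start of the globo-series, which B3GALNT1 extends to Gb4 and B3GALT5 to Gb5, the antigen SSEA-3. The sialyltransferases ST3GAL1 and ST3GAL2 cap such chains, ST3GAL2 being the main enzyme known to make SSEA-4 from Gb5. ST3GAL5 instead adds sialic acid to lactosylceramide and so opens the ganglioside branch (GM3), from which ST8SIA1 makes GD3 and B4GALNT1 makes GM2 and GD2. SSEA-3 and SSEA-4 are long-used surface markers of primed human pluripotent cells.

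All libraries came from H9, an established hES cell line, in 10 groups of 3. Primed WT cells were unmodified and grew on Matrigel. NaiveCult WT and XACT KO cells were converted to the naive state with the NaiveCult protocol, and the 3 XACT KO clones carried a deletion over the transcription start sites of XACT, a long noncoding RNA of active X chromosomes. The other 7 groups were naive cells in PXGL medium, which contains inhibitors of MEK, tankyrase and protein kinase C together with LIF, and all naive cells grew on mouse feeder cells. PXGL WT cells were unmodified, and XIST KO cells were 1 homozygous clone lacking XIST, the long noncoding RNA that coats the X chromosome, so their 3 libraries measured technical spread around a single clone. CRISPRi UT and CRISPRi Dox cells carried a doxycycline-inducible dCas9-KRAB repressor aimed at XIST, in 3 clones, without and with doxycycline. No group had doxycycline without this repressor. Between these groups a change with the drug and one with loss of XIST thus cannot be told apart. siScr, siSPEN1 and siSPEN2 cells were transfected with a scrambled siRNA or either of the mixes of siRNA against SPEN, a repressor protein that binds XIST. The PXGL libraries of the XIST experiment, the SPEN experiment and the NaiveCult and primed libraries carry different codes in their deposited names. Neither labels nor methods say what these codes mean, so between PXGL WT and NaiveCult WT or Primed WT a difference that goes with the code and one that goes with the culture cannot be told apart.

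Library totals ranged from 31.2 to 65.6 M reads, so that 3 counts corresponded to between 0.0457 and 0.0962 CPM (the read count scaled to a common library total). The targeted transcripts went the way of the labels. The scrambled control had 330 ± 46.3 CPM of SPEN (mean ± SD, n = 3 here and below), against 163 ± 13 CPM with siSPEN1 and 157 ± 8.28 CPM with siSPEN2. XACT averaged 1.71 ± 0.525 CPM in NaiveCult WT, compared with 0.0669 ± 0.0627 CPM after its deletion, and XIST was below every control library in all 3 libraries of both XIST depletions. The 7 naive markers summed to between 2151 and 3268 CPM in naive libraries and to between 26.2 and 31.9 CPM in Primed WT, and the 6 primed markers to between 2923 and 3182 CPM in Primed WT and at most 115.5 CPM in naive libraries.

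Promoter windows were available for 6 of the 10 genes, in 14 windows of 300 bases (250 before and 50 after a RefSeq transcript start, GRCh38.p14). Those of A4GALT and UGCG, the members with the highest levels in naive cells, and of B3GALT5 and ST8SIA1, the members that differed most in the other direction, are shown 5′ to 3′ on the strand of the gene. Capitals mark the GC box GGGCGG on either strand, the motif bound by the SP and KLF factor family. The windows lie at chr22:42720821-42721120 (minus strand), chr9:111896564-111896863 (plus strand), chr21:39612690-39612989 (plus strand) and chr12:22334658-22334957 (minus strand).
A4GALT: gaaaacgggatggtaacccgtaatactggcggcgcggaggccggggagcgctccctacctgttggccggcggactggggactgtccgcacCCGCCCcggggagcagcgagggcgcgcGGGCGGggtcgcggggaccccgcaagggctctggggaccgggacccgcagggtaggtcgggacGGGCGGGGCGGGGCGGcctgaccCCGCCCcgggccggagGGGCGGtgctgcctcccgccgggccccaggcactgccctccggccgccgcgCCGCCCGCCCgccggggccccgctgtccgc
UGCG: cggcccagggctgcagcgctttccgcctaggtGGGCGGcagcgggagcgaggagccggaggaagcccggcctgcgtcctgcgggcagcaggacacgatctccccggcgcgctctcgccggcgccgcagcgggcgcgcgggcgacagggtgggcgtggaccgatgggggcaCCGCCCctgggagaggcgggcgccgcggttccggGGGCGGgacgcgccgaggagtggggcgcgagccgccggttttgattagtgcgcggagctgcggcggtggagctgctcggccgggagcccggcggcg
B3GALT5: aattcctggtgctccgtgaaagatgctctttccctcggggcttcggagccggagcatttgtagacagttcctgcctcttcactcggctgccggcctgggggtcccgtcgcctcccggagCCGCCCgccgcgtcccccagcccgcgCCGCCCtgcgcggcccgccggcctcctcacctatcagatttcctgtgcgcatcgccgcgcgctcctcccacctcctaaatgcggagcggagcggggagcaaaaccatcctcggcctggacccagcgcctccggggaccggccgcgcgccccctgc
ST8SIA1: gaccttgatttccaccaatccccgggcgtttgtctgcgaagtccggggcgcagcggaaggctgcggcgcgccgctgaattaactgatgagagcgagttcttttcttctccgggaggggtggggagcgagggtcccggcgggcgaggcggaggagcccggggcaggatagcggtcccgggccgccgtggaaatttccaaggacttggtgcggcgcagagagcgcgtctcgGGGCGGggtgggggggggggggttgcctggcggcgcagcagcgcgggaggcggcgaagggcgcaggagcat

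The A4GALT window held 9 matches to the GC box, overlapping ones included, the UGCG window 3, the B3GALT5 window 2 and the ST8SIA1 window 1. Of 35116 promoter windows of the same length, 45.0% held at least 1. All 4 windows were rich in CG dinucleotides, with 43, 48, 35 and 35 in that order, against a median of 14 over all windows. The second window of A4GALT, at chr22:42721252-42721551, held 1 GC box and 6 CG dinucleotides, and the second of B3GALT5, at chr21:39642146-39642445, held no GC box and 3 CG dinucleotides. TATAAA occurred 3 times in that second B3GALT5 window and in 11.5% of all windows, and it was found in no other window of the members. The TFAP2 motif GCCNNNGGC, read on both strands, occurred in 23.2% of all windows, with 2 matches in the first A4GALT window and 1 each in those of UGCG and ST8SIA1 and in B3GALNT1 windows 1 and 3. The 3 B3GALNT1 windows held 0, 2 and 0 GC boxes and the 5 ST3GAL5 windows 4, 3, 1, 0 and 0. ST3GAL1, ST3GAL2, B4GALNT1 and B4GALT6 had no window to search.

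Naive cells had far more mRNA of A4GALT, which begins the globo-series. They had less of B3GALNT1 and B3GALT5, which extend it, and of ST3GAL5, which opens the ganglioside branch. The members did not divide cleanly by step. Before the branch point UGCG was higher but B4GALT6 lower, and the capping enzymes ST3GAL1 and ST3GAL2 were higher. A4GALT, UGCG, ST3GAL1 and ST3GAL2 were higher in all 27 naive libraries than in the 3 Primed WT libraries, and B3GALNT1, B3GALT5, ST3GAL5, ST8SIA1 and B4GALT6 were lower in all 27. B4GALNT1 overlapped. Among the 25018 genes with any count, 44.8% had ranges that did not overlap in this way (16.9% with naive cells higher and 27.9% with naive cells lower), so that separation is common in these data.

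**Figure D1:**
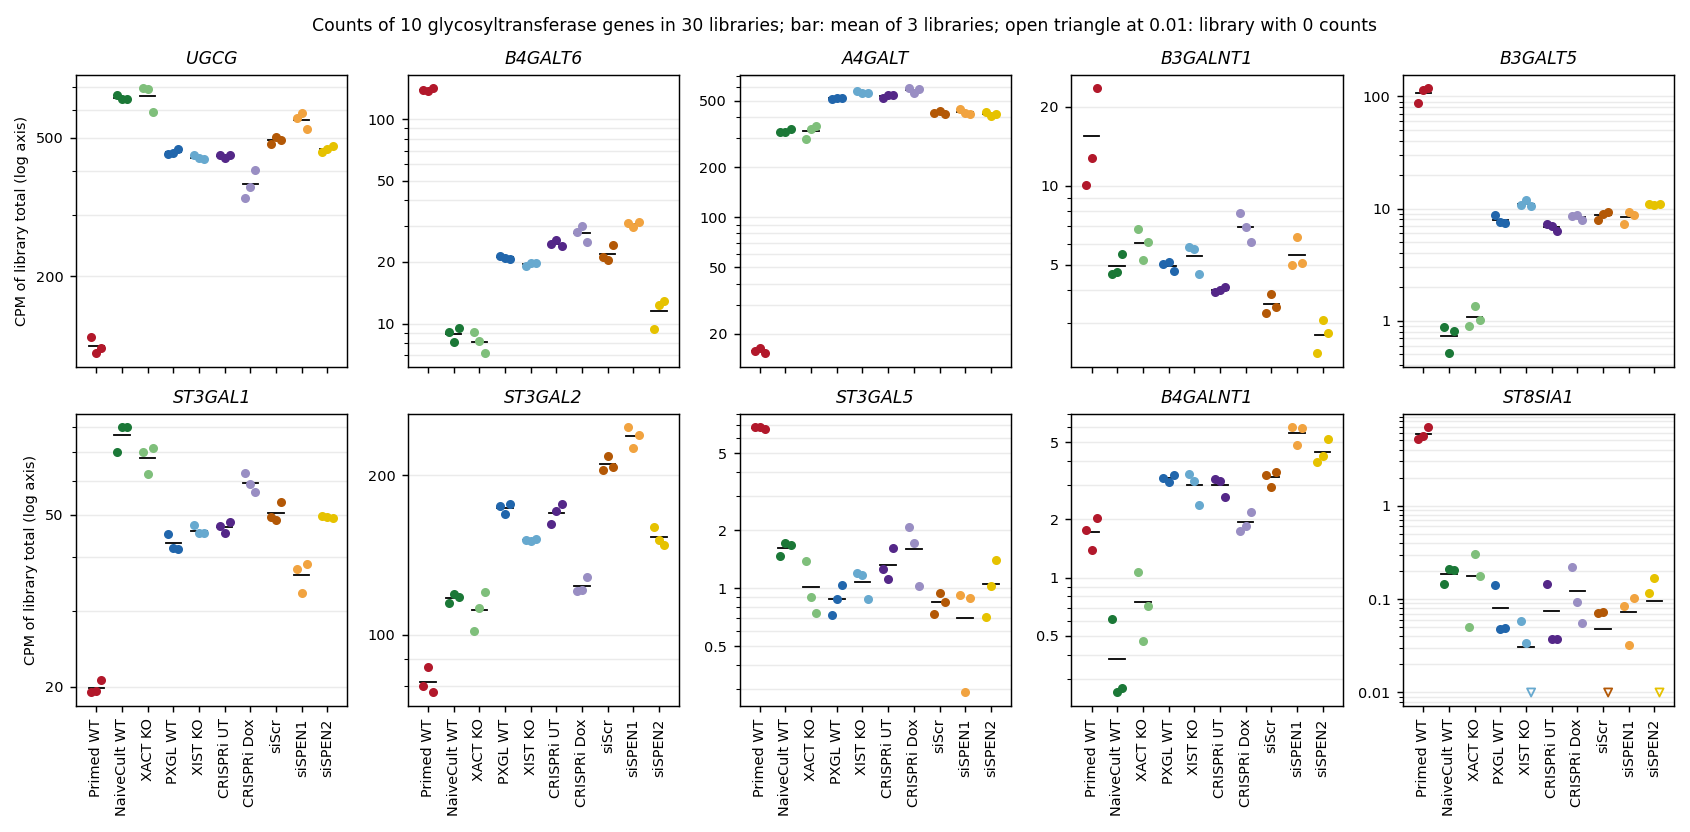
CPM of the library total (log axis) of each of the 10 genes in the 30 libraries, with a panel for each gene and a column for each group; points are libraries, bars are means of 3 libraries, and open triangles drawn at 0.01 are libraries with 0 counts. Primed WT stands apart from all naive groups for every gene except B4GALNT1.

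UGCG (chromosome 9, 111896814 to 111935369, plus strand; positions here and below are those of GENCODE 44 on hg38), which makes glucosylceramide, was at 134, 119.9 and 124 CPM in the Primed WT libraries. It was at 662, 646 and 644 CPM in NaiveCult WT and at 449, 453 and 464 CPM in PXGL WT. Every naive library was thus well above the primed ones, and NaiveCult WT was above PXGL WT. The log2 fold change was 2.52 (SE 0.051) for NaiveCult WT over Primed WT and 2.06 (SE 0.050) for PXGL WT over Primed WT. B4GALT6 (chromosome 18, 31622246 to 31685836, minus strand), a lactosylceramide synthase, went the other way, with 138.5, 137 and 142 CPM in Primed WT. It was at 9.07, 8.11 and 9.50 CPM in NaiveCult WT and at 21.4, 20.9 and 20.8 CPM in PXGL WT. Its log2 fold changes were -3.82 (SE 0.061) and -2.52 (SE 0.055). B4GALT5, the other lactosylceramide synthase, which was looked up after the values of B4GALT6 were seen, was at 209.7 ± 8.97 CPM in Primed WT, 170.2 ± 3.70 CPM in NaiveCult WT and 198 ± 4.83 CPM in PXGL WT.

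The Gb3 synthase A4GALT (chromosome 22, 42692121 to 42721298, minus strand) was far higher in naive cells. It was at 15.8, 16.5 and 15.3 CPM in Primed WT. It was at 322, 323 and 337 CPM in NaiveCult WT and at 511, 517 and 519 CPM in PXGL WT. No naive library of any group was below 294 CPM. The log2 fold change was 4.52 (SE 0.049) in NaiveCult WT and 5.23 (SE 0.050) in PXGL WT, or 22.9-fold and 37.5-fold. An overlap with the neighbouring CYB5R3 on the same strand covers 2.20% of the exon bases of A4GALT, where reads could be lost.

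B3GALNT1 and B3GALT5, which lengthen the chain after A4GALT, were lower in naive cells. B3GALNT1 (chromosome 3, 161083883 to 161105411, minus strand), which makes Gb4, was at 10.1, 12.8 and 23.6 CPM in Primed WT, a wide spread. It was at 4.61, 4.69 and 5.49 CPM in NaiveCult WT and at 5.0, 5.1 and 4.71 CPM in PXGL WT. The log2 fold changes were -1.50 (SE 0.24) and -1.45 (SE 0.24), and without Primed WT replicate 3 they were -1.06 and -1.0. B3GALT5 (chromosome 21, 39556442 to 39673137, plus strand), which makes Gb5, was at 87.8, 114 and 119 CPM in Primed WT. It was nearly absent in NaiveCult WT, with 0.878, 0.511 and 0.810 CPM, while PXGL WT had 8.77, 7.66 and 7.39 CPM. All 3 cultures were therefore separated, with log2 fold changes to Primed WT of -7.04 (SE 0.16) for NaiveCult WT and -3.55 (SE 0.12) for PXGL WT.

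ST3GAL1 and ST3GAL2, which cap the chains with sialic acid, were higher in naive cells but by less. ST3GAL1 (chromosome 8, 133454848 to 133571926, minus strand) was at 19.4, 19.5 and 20.7 CPM in Primed WT, at 70.0, 79.9 and 79.8 CPM in NaiveCult WT and at 45.2, 42.0 and 41.7 CPM in PXGL WT. ST3GAL2 (chromosome 16, 70375977 to 70439237, minus strand) was at 80.1, 86.9 and 77.8 CPM in Primed WT, at 115, 119 and 118 CPM in NaiveCult WT and at 175, 169 and 176 CPM in PXGL WT. The NaiveCult culture thus had the highest ST3GAL1 of the 3 and PXGL the highest ST3GAL2. The log2 fold changes of ST3GAL1 were 2.10 (SE 0.065) and 1.32 (SE 0.064), and those of ST3GAL2 were 0.68 (SE 0.047) and 1.30 (SE 0.047), in NaiveCult WT and PXGL WT.

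The ganglioside enzymes were expressed at low levels throughout. ST3GAL5 (chromosome 2, 85837120 to 85905199, minus strand), the GM3 synthase, was at 6.84, 6.81 and 6.70 CPM in Primed WT. It was at 1.46, 1.72 and 1.67 CPM in NaiveCult WT and at 0.731, 0.877 and 1.04 CPM in PXGL WT, with log2 fold changes of -1.91 (SE 0.16) and -2.73 (SE 0.17). ST8SIA1 (chromosome 12, 22063773 to 22437041, minus strand), the GD3 synthase, was at 5.17, 5.65 and 6.98 CPM in Primed WT, from 1008 counts in all. In the naive groups it had between 5 counts (XIST KO) and 24 counts (NaiveCult WT) over 3 libraries, and no naive library exceeded 0.307 CPM. Its log2 fold changes were -4.82 (SE 0.28) in NaiveCult WT and -5.91 (SE 0.30) in PXGL WT.

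B4GALNT1 (chromosome 12, 57623409 to 57633239, minus strand), which makes GM2 and GD2, was the member whose direction depended on the naive culture. It was at 1.76, 1.38 and 2.04 CPM in Primed WT. In NaiveCult WT it was lower, at 0.610, 0.256 and 0.270 CPM, with a log2 fold change of -2.05 (SE 0.29). In PXGL WT it was higher, at 3.26, 3.13 and 3.40 CPM, with a log2 fold change of 1.12 (SE 0.23), or 0.97 without Primed WT replicate 2.

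**Figure D2:**
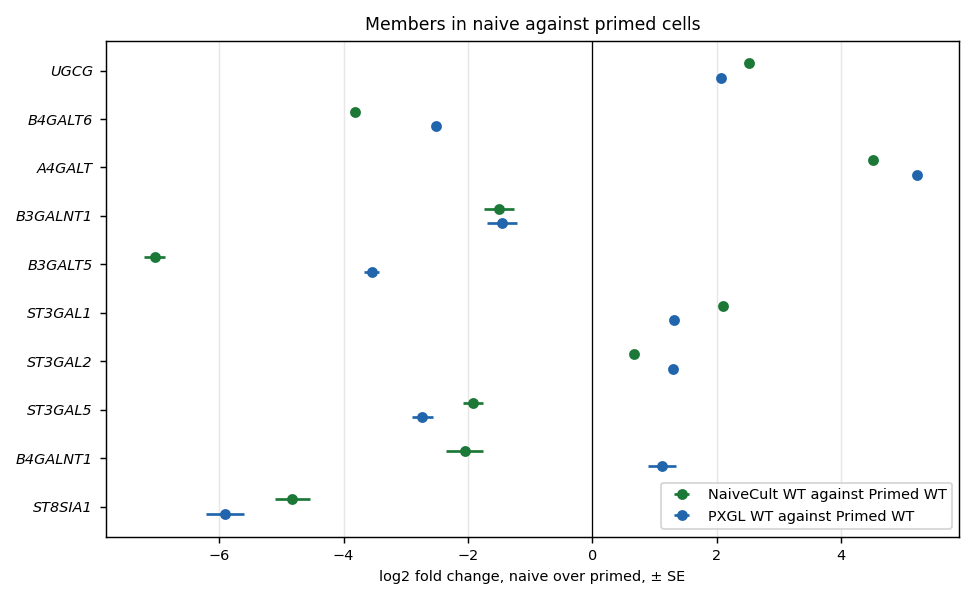
Log2 fold change (naive over primed, with SE) of the 10 genes in NaiveCult WT (green) and PXGL WT (blue) against Primed WT. A4GALT is farthest to the right in both, at 4.52 and 5.23, and B4GALNT1 alone changes side, from -2.05 to 1.12.

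With the study's call rule (adjusted p below 0.05, and a change beyond 1 on the log2 scale in either direction), 9 of the 10 members were called in NaiveCult WT against Primed WT, where 49.6% of 18663 genes were, and 10 of 10 in PXGL WT against Primed WT, where 54.8% were. The ranges of all 10 were apart in both, as were those of 85.4% and 89.3% of all genes. ST3GAL2, at 0.68, was below the fold threshold in NaiveCult WT, and B4GALNT1, at 1.12, was just beyond it in PXGL WT. The members were listed for such differences, so nothing is read from these counts. Scaling by library totals in place of TMM factors moved the median of all genes from -0.01 to -0.17 in NaiveCult WT and from -0.03 to -0.23 in PXGL WT, and no member changed direction. Marker genes of other cell types moved as well. The 6 fibroblast markers summed to between 75.8 and 83.0 CPM in Primed WT and to at most 12 CPM in naive libraries. In Primed WT 3 of 6 had a mean of at least 1 CPM, with COL1A2 the highest. The 6 did not all go 1 way. In NaiveCult WT COL1A1, COL1A2 and PDGFRB fell and POSTN did not pass. LUM (log2 6.30, edgeR adjusted p = 2.3e-07) and DCN (log2 4.98, edgeR adjusted p = 4.6e-05) rose there, LUM to a mean of 4.37 CPM. In PXGL WT DCN did not pass and the others fell. The 7 trophectoderm markers summed to between 107 and 124 CPM in NaiveCult WT and between 27 and 29.5 CPM in PXGL WT, and in Primed WT to between 10.3 and 10.7 CPM, nearly all of it KRT7, with VGLL1 at 0. The 5 hypoblast markers summed to at most 2.45 CPM in Primed WT and to between 22.3 and 52.8 CPM in naive libraries. Their part in the members' differences was not tested, and in these bulk samples fewer cells of a type and less RNA per cell cannot be told apart.

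Between the naive cultures, 3 members were called in PXGL WT against NaiveCult WT, all higher, and 27.4% of all genes were called. The 3 were B3GALT5 (log2 3.49, SE 0.18), B4GALNT1 (log2 3.17, SE 0.28) and B4GALT6 (log2 1.30, SE 0.060). By the adjusted p alone 8 members passed, as did 70.6% of all genes. Ranges were apart for 9 of 10 members and for 74.4% of all genes. A4GALT (0.71) and ST3GAL2 (0.62) were also higher in PXGL WT. ST3GAL1 (-0.78), UGCG (-0.46) and ST3GAL5 (-0.82) were lower. B3GALNT1 stood at 0.05 (SE 0.25). ST8SIA1 stood at -1.09 (SE 0.48) from 14 and 24 counts, and at -1.83 without PXGL WT replicate 1.

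Per length of merged exons, UGCG and B4GALT6 made up the largest parts of the 10 transcripts in Primed WT, with 34.4% ± 2.12 and 33.6% ± 0.118 of their summed CPM per kb. A4GALT made up 5.90% ± 0.326 there. In NaiveCult WT the order was UGCG at 54.1% ± 0.940 and A4GALT at 37% ± 0.711, and in PXGL WT A4GALT at 54.5% ± 0.249 and UGCG at 35.4% ± 0.277. B3GALT5 made up 9.14% ± 1.36 in Primed WT, 0.0190% ± 0.0050 in NaiveCult WT and 0.193% ± 0.019 in PXGL WT. These shares depend on the annotated exon length, which includes every isoform, and a gene with many isoforms is set too low.

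**Figure D3:**
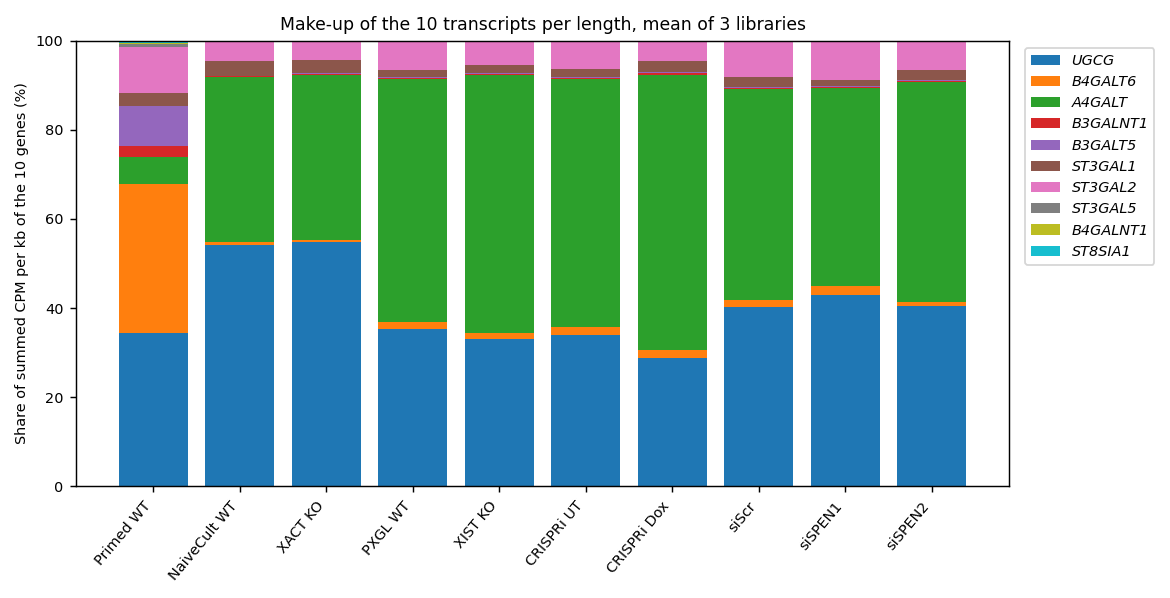
Share (%) of the summed CPM per kb of the 10 genes taken by each gene, as the mean of 3 libraries in each of the 10 groups. A4GALT and UGCG together fill most of every naive bar, and B4GALT6 takes 33.6% only in Primed WT.

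At the branch point, the log2 ratio of A4GALT to ST3GAL5 counts within a library (1 added to each) separated the states widely. It was 1.22 ± 0.047 in Primed WT and 7.64 ± 0.114 in NaiveCult WT. In the PXGL groups its means ran from 8.54 (CRISPRi Dox) to 9.36 (siSPEN1), where a single library with low ST3GAL5 reached 10.4. The ratio of ST3GAL2 to ST3GAL1 ordered the samples differently. It was 2.04 ± 0.121 in Primed WT and 2.01 ± 0.065 in PXGL WT, with overlapping ranges, but 0.62 ± 0.084 in NaiveCult WT and 0.72 ± 0.159 in XACT KO.

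The other genes of glycosphingolipid metabolism were taken as 5 lists of 56 genes. In NaiveCult WT against Primed WT 17 rose and 30 fell of 52 tested (edgeR adjusted p below 0.05, which 85.4% of all genes passed), with a median log2 fold change of -0.47 against -0.01 over all genes. In PXGL WT 20 rose and 31 fell of 52 (87.5% of all genes passed), with a median of -0.39 against -0.03. Among the ganglioside and sialyl transferases outside the members, 8 of 9 tested fell in both, 7 and 8 of them past the fold threshold. Over all genes, 49.6% and 54.8% were called in either direction. ST8SIA3, a sialyltransferase of nervous tissue, was at 9.83 ± 2.31 CPM in Primed WT and at 0.0163 ± 0.0282 CPM in NaiveCult WT, under the level of 3 counts. B3GALT1, which extends lacto-series chains, went from 86.4 ± 7.01 CPM to 0.0238 ± 0.0244 CPM, also under that level, and to 0.0426 ± 0.0094 CPM in PXGL WT. FUT9, the fucosyltransferase that makes the Lewis X epitope, fell by 7.49 (edgeR adjusted p = 6.5e-15, SE 0.14) in NaiveCult WT and by 7.05 (edgeR adjusted p = 5.2e-15, SE 0.13) in PXGL WT on the log2 scale.

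Of the 17 genes that make or carry ceramide, 6 rose and 9 fell in NaiveCult WT and 6 rose and 11 fell in PXGL WT. Over all genes, 85.4% rose or fell in NaiveCult WT and 87.5% in PXGL WT. CERS6, a ceramide synthase, went from 163 ± 7.53 CPM in Primed WT to 5.14 ± 1.85 CPM in NaiveCult WT and 8.12 ± 0.521 CPM in PXGL WT, and fell by 4.84 (edgeR adjusted p = 1.8e-12, SE 0.16) and 4.12 (edgeR adjusted p = 3.6e-12, SE 0.15). GLTP, a carrier of glycolipids between membranes, fell by 2.81 (edgeR adjusted p = 4.6e-12, SE 0.10) in NaiveCult WT and also fell in PXGL WT (edgeR adjusted p = 2.6e-11). DEGS1, the desaturase of the last step of ceramide synthesis, rose by 2.70 (edgeR adjusted p = 1.4e-15, SE 0.043) in NaiveCult WT, from 43.8 ± 0.424 to 257 ± 3.08 CPM, and by 2.59 in PXGL WT. SPTLC2, a subunit of the enzyme of the first step, rose by 1.67 in NaiveCult WT, from 164.9 ± 4.05 to 473 ± 26.4 CPM. B4GALT1, which can extend lacto-series chains, rose by 2.71 in PXGL WT, from 34.4 ± 0.931 to 196 ± 2.05 CPM. Of the 11 tested genes of lysosomal and sialidase breakdown, 7 rose and 3 fell in NaiveCult WT and 7 rose and 4 fell in PXGL WT.

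**Figure D4:**
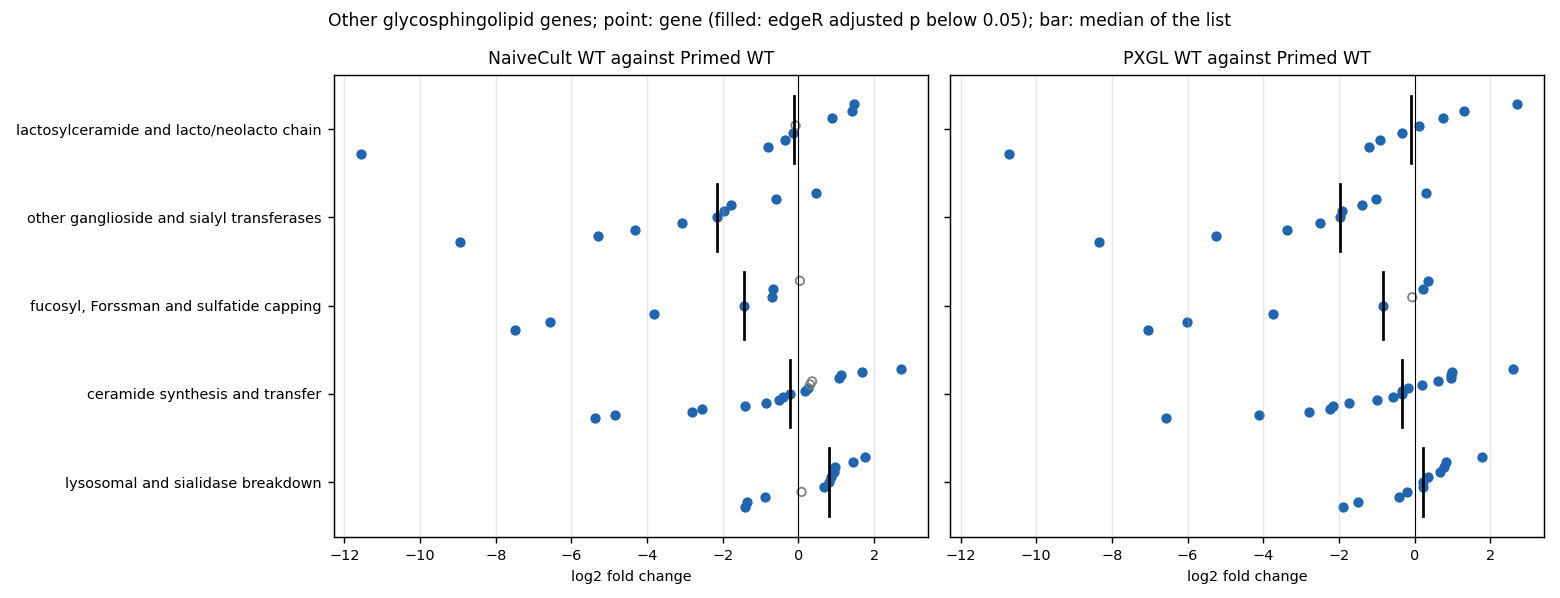
Log2 fold change of the tested genes of 5 lists of glycosphingolipid metabolism in NaiveCult WT and PXGL WT against Primed WT; points are genes, filled at an adjusted p below 0.05, and bars are list medians. The ganglioside and sialyl transferases have the lowest medians, -2.15 and -1.98.

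The XIST experiment asked whether loss of XIST changes gene expression in naive cells. In these comparisons, and in those of SPEN and XACT, ST8SIA1 was removed by the filter on low counts and 9 members were tested. No member was called in any of the 5 perturbation comparisons by edgeR or by DESeq2. At an unadjusted p below 0.05 there were 3 members in XIST KO (25.3% of all genes), 8 with doxycycline (47.7%), 6 with siSPEN1 (50.4%), 5 with siSPEN2 (48.1%) and 2 in XACT KO (18.2%).

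In XIST KO against PXGL WT, 2 members rose and 1 fell by the adjusted p (6.94% and 5.99% of 17286 genes, 12.9% in all, with 1.28% past the fold threshold as well). Ranges were apart for 6 of the 9 tested members and 37.2% of all genes. B3GALT5 was at 8.77, 7.66 and 7.39 CPM in PXGL WT and at 10.7, 11.8 and 10.5 CPM in XIST KO. The ranges did not overlap, and it rose by 0.47 (edgeR adjusted p = 8.3e-04, SE 0.087). ST3GAL2 was at 151, 150.4 and 151 CPM in XIST KO, below all PXGL WT libraries, and fell by 0.20 (edgeR adjusted p = 8.0e-04, SE 0.038). A4GALT rose by 0.12 (edgeR adjusted p = 0.027, SE 0.036), a change that 4 of 6 leave-one-out fits did not keep past the threshold (adjusted p from 0.065 to 0.13), namely those without PXGL WT or XIST KO replicate 1 or 3. The other 6 tested members had log2 fold changes between -0.13 and 0.29. Markers moved in these samples too. The 7 trophectoderm markers summed to between 20.7 and 22.2 CPM in XIST KO and between 27 and 29.5 CPM in PXGL WT, and the 6 primed markers to between 86.9 and 89.1 CPM and between 77.0 and 81.6 CPM. The sums of the 7 naive and of the 5 hypoblast markers overlapped, although SUSD2 fell by 0.22 (edgeR adjusted p = 0.0063). Their part in the members' changes was not tested. Of the 48 tested pathway genes, 2 rose and 9 fell. GLA, the lysosomal enzyme that breaks down Gb3, rose by 0.35 (edgeR adjusted p = 4.0e-05, SE 0.050), and FUT1, which makes the H antigen, fell by 0.32 (edgeR adjusted p = 0.0019, SE 0.066). FUT9 alone passed the fold threshold, from 0.384 ± 0.0709 to 0.099 ± 0.0389 CPM, a fall of 1.92 that was lost without XIST KO replicate 1 (edgeR adjusted p = 0.0097 and 0.06).

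In CRISPRi Dox against CRISPRi UT, 5 members rose and 3 fell (20.7% and 18.9% of 17286 genes, 39.6% in all, with 3.81% past the fold threshold). Ranges were apart for 7 of 9 members and 44.6% of all genes. B3GALNT1 moved most, from 3.92, 4.02 and 4.12 CPM to 7.86, 6.97 and 6.08 CPM, a log2 rise of 0.78 (edgeR adjusted p = 1.4e-05, SE 0.11). B4GALNT1 was at 3.23, 3.17 and 2.62 CPM without and 1.75, 1.85 and 2.18 CPM with doxycycline, and fell by 0.66 (edgeR adjusted p = 0.0018, SE 0.15). The groups did not overlap for either gene.

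ST3GAL2 and ST3GAL1 moved in opposite directions with doxycycline. ST3GAL2 was at 162, 171 and 176 CPM without and at 121, 122 and 129 CPM with it, and fell by 0.47 (edgeR adjusted p = 6.6e-09, SE 0.038). ST3GAL1 went from 47.1, 45.3 and 48.1 CPM to 62.5, 58.9 and 56.6 CPM, a rise of 0.33 (edgeR adjusted p = 8.3e-06, SE 0.045). Neither gene had overlapping ranges, and the log2 ratio of ST3GAL2 to ST3GAL1 was 1.86 ± 0.069 without and 1.06 ± 0.118 with doxycycline. UGCG was at 447, 437 and 445 CPM without and 336, 361 and 403 CPM with doxycycline, and fell by 0.29 (edgeR adjusted p = 8.7e-05, SE 0.048).

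A4GALT (0.11), B3GALT5 (0.29) and B4GALT6 (0.16) also rose with doxycycline, with edgeR adjusted p of 0.022, 0.015 and 0.033. Each of these was lost without single libraries. For A4GALT this was CRISPRi UT replicate 1 (adjusted p = 0.086) and for B3GALT5 CRISPRi UT replicate 3 (adjusted p = 0.072). For B4GALT6, whose ranges overlapped, it was CRISPRi UT replicate 1 or 3 or CRISPRi Dox replicate 1 or 2 (adjusted p from 0.06 to 0.13). State markers moved in the same samples. The 7 naive markers summed to between 2555 and 2696 CPM with and between 2889 and 2987 CPM without doxycycline, and the 6 primed markers summed to between 97.0 and 100.6 CPM with and between 77.5 and 81.5 CPM without it. Of the naive markers, KLF17 (log2 -1.24), SUSD2 (-0.72) and DPPA3 (-0.14) fell and DPPA5 (0.28) rose, with edgeR adjusted p of 2.7e-08, 1.2e-09, 0.014 and 2.8e-04, and KLF4, DNMT3L and TFCP2L1 did not pass. The 7 trophectoderm markers summed to between 25.8 and 31.6 CPM with and between 17.7 and 19.6 CPM without doxycycline, but did not all go 1 way. HAND1, TP63, CDX2 and KRT7 rose, GATA3 fell by 0.44 (edgeR adjusted p = 0.0026), and GATA2 and VGLL1 did not pass. The 5 hypoblast markers summed to between 30.2 and 37.4 CPM with and between 22.3 and 24.5 CPM without doxycycline. Among them GATA4 rose by 0.97 (edgeR adjusted p = 2.8e-08) and GATA6 fell (edgeR adjusted p = 1.5e-08). Their part in the members' changes was not tested.

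The pathway genes changed with doxycycline in both directions, 10 up and 8 down of 48 tested, where 39.6% of all genes changed. B3GNT5, which starts lacto-series chains from lactosylceramide, rose by 0.98 (edgeR adjusted p = 5.5e-06, SE 0.13), from 14.6 ± 0.690 to 29.2 ± 8.74 CPM. ST3GAL6, a sialyltransferase of such chains, rose by 0.53 (edgeR adjusted p = 0.0022, SE 0.13). DEGS1 fell by 0.35 (edgeR adjusted p = 7.0e-07, SE 0.040).

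The SPEN experiment asked what SPEN, a partner of XIST, does in naive cells. siSPEN1 and siSPEN2 share the siScr control, so their values are given side by side. In siSPEN1 5 members rose and 1 fell (20.8% and 22.9% of 16448 genes, 43.7% in all, with 5.08% past the fold threshold). In siSPEN2 2 rose and 3 fell (20.5% and 20.7% of 16448 genes, 41.2% in all, with 4.24% past the fold threshold). Against siScr, ranges were apart for 6 of 9 members with each mix, and for 50.4% and 51.1% of all genes.

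B4GALT6 changed most and in opposite directions. It was at 21.1, 20.4 and 24.2 CPM in siScr, at 30.9, 29.6 and 31.5 CPM in siSPEN1 and at 9.42, 12.3 and 12.9 CPM in siSPEN2, with no overlap between any of the groups. It rose by 0.50 (edgeR adjusted p = 1.0e-04, SE 0.088) with siSPEN1 and fell by 0.93 (edgeR adjusted p = 7.8e-08, SE 0.093) with siSPEN2. Without siSPEN2 replicate 3 it was the sole member to pass the fold threshold in that comparison. Its difference between the mixes was -1.42 (edgeR adjusted p = 1.8e-10, SE 0.092).

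B3GALNT1 and ST3GAL2 also went opposite ways. B3GALNT1 had 3.28, 3.85 and 3.44 CPM in siScr, 4.96, 6.35 and 5.07 CPM in siSPEN1 and 2.29, 3.06 and 2.75 CPM in siSPEN2. It rose by 0.63 (edgeR adjusted p = 0.0012, SE 0.14) with siSPEN1. With siSPEN2 it fell by 0.39 (edgeR adjusted p = 0.044, SE 0.15), a call lost with DESeq2 (adjusted p = 0.05), with library totals (0.051) and without siScr replicate 2 or 3 or siSPEN2 replicate 1 or 3 (0.08 to 0.18). ST3GAL2 was at 205, 218 and 207 CPM in siScr, at 247, 225 and 239 CPM in siSPEN1 and at 159.9, 151 and 148 CPM in siSPEN2. It rose by 0.19 (edgeR adjusted p = 0.0036, SE 0.048) with siSPEN1 and fell by 0.47 (edgeR adjusted p = 1.4e-07, SE 0.049) with siSPEN2.

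B4GALNT1 rose with both mixes. It was at 3.40, 2.94 and 3.52 CPM in siScr, at 5.99, 4.84 and 5.94 CPM in siSPEN1 and at 3.95, 4.22 and 5.16 CPM in siSPEN2. The rise was 0.78 (edgeR adjusted p = 1.0e-04, SE 0.14) with siSPEN1 and 0.43 (edgeR adjusted p = 0.018, SE 0.14) with siSPEN2, where it was lost without siScr replicate 2 (adjusted p = 0.086) or siSPEN2 replicate 3 (adjusted p = 0.12).

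The remaining changes were seen with a single mix. ST3GAL1 was at 49.5, 48.7 and 53.7 CPM in siScr and at 37.4, 33.0 and 38.5 CPM in siSPEN1, where it fell by 0.47 (edgeR adjusted p = 1.8e-06, SE 0.060). In siSPEN2 it was at 49.7, 49.5 and 49.2 CPM (log2 -0.04, SE 0.058). UGCG was at 480.1, 502 and 494 CPM in siScr and at 569, 587 and 529 CPM in siSPEN1, a rise of 0.20 (edgeR adjusted p = 0.0026, SE 0.051). With siSPEN2 UGCG stood at -0.09 (SE 0.051). B3GALT5 rose by 0.32 (edgeR adjusted p = 0.015, SE 0.10) with siSPEN2, a call lost without siScr replicate 1 (adjusted p = 0.087), and stood at -0.03 (SE 0.10) with siSPEN1. For these 3 genes the mixes differed from each other, by 0.42 for ST3GAL1 (edgeR adjusted p = 9.4e-06, SE 0.060), by -0.30 for UGCG (edgeR adjusted p = 9.9e-05, SE 0.051) and by 0.35 for B3GALT5 (edgeR adjusted p = 0.011, SE 0.10). A4GALT stood at 0.02 (SE 0.047) and -0.04 (SE 0.047), and ST3GAL5, near 1 CPM in all 3 groups, at -0.23 (SE 0.35) and 0.30 (SE 0.33). The log2 ratio of ST3GAL2 to ST3GAL1 was 2.05 ± 0.107 in siScr, 2.71 ± 0.069 in siSPEN1 and 1.63 ± 0.053 in siSPEN2. The 5 hypoblast markers summed to between 49.6 and 52.8 CPM in siScr, 40.4 and 42.3 CPM in siSPEN1 and 29.7 and 33.4 CPM in siSPEN2. With siSPEN1 the naive markers summed to between 3110 and 3268 CPM, against 2798 to 2856 CPM in siScr, the primed markers to between 88.7 and 94.5 CPM, against 109.7 to 115.5 CPM, and the trophectoderm markers to between 19.6 and 23.5 CPM, against at least 26.1 CPM. With siSPEN2 the primed markers summed to between 107.5 and 108.3 CPM and the trophectoderm markers to between 24.1 and 24.8 CPM, also below siScr. The naive sums of siSPEN2 overlapped those of siScr. Among the trophectoderm markers GATA3 and HAND1 fell with both mixes. KRT7 rose with both, by 0.98 (edgeR adjusted p = 4.4e-04) and 1.19 (edgeR adjusted p = 4.9e-05). The part of these markers in the members' changes was not tested.

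**Figure D5:**
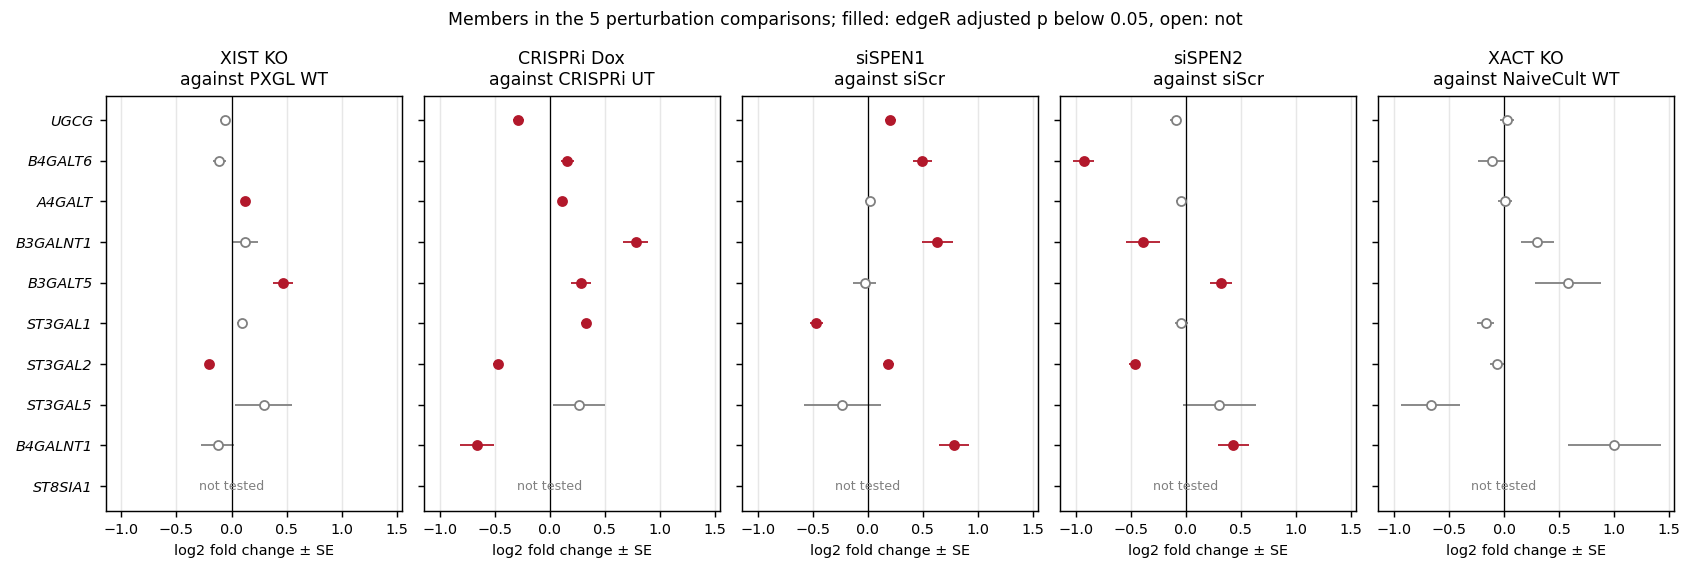
Log2 fold change with SE of the 9 tested members in the 5 perturbation comparisons; filled red points passed an edgeR adjusted p of 0.05 and open grey points did not. B4GALT6, B3GALNT1 and ST3GAL2 lie on opposite sides of 0 in siSPEN1 and siSPEN2, and no point of XACT KO is filled.

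Of the 46 pathway genes tested in the SPEN experiment, 9 rose and 13 fell with siSPEN1 and 15 rose and 12 fell with siSPEN2. Over all genes, 43.7% and 41.2% rose or fell. SPTLC1, a subunit of the enzyme that starts ceramide synthesis, rose by 0.53 (edgeR adjusted p = 2.1e-08, SE 0.050) and 0.60 (edgeR adjusted p = 4.5e-09, SE 0.049). FUT1 rose by 0.91 (edgeR adjusted p = 9.5e-10, SE 0.069) with siSPEN1. GLTP fell by 0.94 (edgeR adjusted p = 2.8e-09, SE 0.075) with siSPEN2, from 23.0 ± 0.688 to 12 ± 0.443 CPM. Past the fold threshold were ST6GALNAC5, a ganglioside sialyltransferase, with siSPEN1 (log2 -1.24, edgeR adjusted p = 0.0024) and SGMS2, a sphingomyelin synthase, with siSPEN2 (log2 -1.35, edgeR adjusted p = 0.004), both at or under about 1 CPM.

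In XACT KO against NaiveCult WT, 0 members rose or fell by the adjusted p of edgeR or DESeq2 (0.425% of 16472 genes passed in edgeR, and 0.115% passed the fold threshold too), and 2 had an unadjusted p below 0.05, ST3GAL5 and B4GALNT1. Ranges were apart for 2 members and for 23.6% of all genes. A4GALT was at 294, 336 and 352 CPM in XACT KO (log2 0.01, SE 0.065) and UGCG at 696, 689 and 594 CPM (log2 0.03, SE 0.064). B4GALNT1 was at 1.07, 0.472 and 0.715 CPM (log2 1.00, edgeR adjusted p = 0.23, SE 0.42), with overlapping ranges. ST3GAL5 was at 1.39, 0.896 and 0.740 CPM, below all 3 NaiveCult WT libraries (log2 -0.67, edgeR adjusted p = 0.20, SE 0.27). The 7 trophectoderm markers summed to between 130 and 176 CPM in XACT KO. Of 47 tested pathway genes, 2 fell. These were ST6GALNAC4, a sialyltransferase (log2 -0.86, edgeR adjusted p = 0.044, SE 0.17), and GCNT2, which branches lacto-series chains (log2 -0.42, edgeR adjusted p = 0.044, SE 0.085). Neither was kept without NaiveCult WT replicate 2 or without any of the XACT KO libraries, with adjusted p from 0.061 to 0.17, and GCNT2 was also lost without NaiveCult WT replicate 3 (adjusted p = 0.051).

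Over the 10 groups, A4GALT was ordered from CRISPRi Dox (580 ± 20.1 CPM) and XIST KO (563 ± 10.2 CPM), whose ranges overlapped, through CRISPRi UT and PXGL WT, then the SPEN groups (415 to 428 CPM), which overlapped each other, to XACT KO and NaiveCult WT (328 and 327 CPM) and Primed WT (15.9 ± 0.627 CPM). UGCG had another order, with XACT KO (659.7 ± 56.8 CPM) and NaiveCult WT (651 ± 9.71 CPM) overlapping at the top and CRISPRi Dox (367 ± 33.9 CPM) the lowest of the naive groups. ST3GAL2 was highest in siSPEN1 (237 ± 10.9 CPM), apart from siScr (209.9 ± 6.98 CPM). For ST3GAL5 and ST8SIA1, neighbouring groups overlapped everywhere below Primed WT. By the Pearson correlation of log2(CPM + 1) over the 10 group means, among 14725 genes, the genes most like A4GALT were NFKB2, LINC01160 and SPIC (each r = 0.996). For B3GALT5 they were NOTCH2 (0.989), SALL2 (0.988) and TP53I11 (0.987), for ST3GAL5 MMD, ZC3H6 and CPT1C (0.99 to 0.992), and for UGCG LRRC59, SELENOF (both 0.993) and CCR8 (0.987). For B3GALNT1 the nearest was GALNT1 (0.983), for B4GALNT1 DIDO1 (0.989), for ST3GAL1 MYOF (0.986), for ST3GAL2 SLC4A2 (0.961) and for B4GALT6 MTMR2 (0.976). The 10 points share cell line and culture and the gap between naive and primed cells, so these values describe a pattern of levels only.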

How the data were processed

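RNA sequencing was compared in 30 libraries of H9 cells (stranded total RNA, ribosomal RNA depleted, paired-end). The authors deposited 1 table of raw counts per library. Per their methods, the authors trimmed reads with Trim Galore 0.6.5, mapped them with Bowtie 2, removed duplicates with Picard 2.23.5, took out reads of the mouse feeder cells with XenofilteR and counted exonic reads on the reverse strand with HTSeq 0.13.5. Reads shared by overlapping genes or near-identical copies are lost or split. The tables name genes by symbol without coordinates.

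The members and gene lists were chosen with earlier results of these data known. Levels are CPM of the library total (31.2 to 65.6 M reads). Genes were tested with edgeR 4.0.16 (quasi-likelihood test, TMM factors) in R 4.3.3, after filterByExpr (minimum count 10, minimum total 15), with Benjamini-Hochberg adjustment over all genes of 4 fits. The XIST experiment had 17286 genes, the SPEN experiment 16448, XACT KO with NaiveCult WT 16472, and PXGL WT with NaiveCult WT and Primed WT 18663. Biological variation between libraries (common coefficient) was 0.0483, 0.0554, 0.0842 and 0.0772 in these fits. A gene rose or fell at an adjusted p below 0.05 and was called when it also changed by more than 1 on the log2 scale. Standard errors were derived from the fold change and its F statistic. All 10 members are named, and of the pathway genes mainly those with the largest changes past the adjusted p, up to 3 in each direction. For naive against primed cells, CERS6, GLTP and B4GALT5 were named outside this rule, although unnamed genes such as GAL3ST1 and CERS3 fell by more in NaiveCult WT. The test was checked on simulated counts. Alternatives were DESeq2 1.42.0, library totals, no filter, a replicate block, the compared libraries alone and leaving out each library. No pair of libraries of a group agreed within sampling noise. In the XIST experiment the spread was estimated over the libraries of all its groups together. Libraries of CRISPRi Dox differed more from each other than those of XIST KO, so this shared spread can be too small for doxycycline. The XIST KO libraries come from 1 clone and their spread may be technical. Its p-values therefore do not cover differences between KO clones.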

Additional observations from a re-analysis of the deposited data

Results flagged for a closer look

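The responses of several members differed between both ways of removing XIST, by the test of the difference itself (change with doxycycline minus change in XIST KO, log2 scale, edgeR adjusted p below 0.05 for 21.8% of 17286 genes). The difference was 0.66 for B3GALNT1 (edgeR adjusted p = 0.0056, SE 0.16), which rose with doxycycline and stood at 0.12 in XIST KO. It was -0.27 for ST3GAL2 (edgeR adjusted p = 0.0011, SE 0.054), which fell in both. It was 0.23 for ST3GAL1 (edgeR adjusted p = 0.014, SE 0.065), -0.23 for UGCG (edgeR adjusted p = 0.021, SE 0.068) and 0.27 for B4GALT6 (edgeR adjusted p = 0.024, SE 0.083). Those of ST3GAL1 and UGCG were lost without PXGL WT replicate 1 (adjusted p = 0.054 and 0.057), that of UGCG also without XIST KO replicate 1 (0.057), and that of B4GALT6 without any of 6 libraries (0.051 to 0.064), namely CRISPRi UT replicates 1 and 3, PXGL WT replicates 1 and 2 and XIST KO replicates 1 and 2. Only the CRISPRi comparison included doxycycline, so the drug and the way of XIST loss cannot be told apart here. The paper proposes a doxycycline effect as the likely reason for its larger number of changed genes in that comparison.

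The SPEN mixes differed for 7 of 9 tested members (34.7% of 16448 genes differed). The differences, siSPEN2 minus siSPEN1, were -1.42 for B4GALT6, -1.02 for B3GALNT1 (edgeR adjusted p = 1.4e-05, SE 0.15) and -0.65 for ST3GAL2 (edgeR adjusted p = 1.4e-09, SE 0.049), each of which rose with siSPEN1 and fell with siSPEN2. They were 0.42 for ST3GAL1, 0.35 for B3GALT5, -0.30 for UGCG and -0.35 for B4GALNT1 (edgeR adjusted p = 0.047, SE 0.13). That of B3GALT5 was lost without siSPEN1 replicate 1 (adjusted p = 0.079), and that of B4GALNT1 with library totals (0.065) and without siSPEN1 replicate 1 or 3 or siSPEN2 replicate 1 or 2 (0.12 to 0.15).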

How the results depend on the processing

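No member reversed direction past the threshold under any alternative. Leaving out the fold threshold counts 3 members in XIST KO, 8 with doxycycline, 6 with siSPEN1, 5 with siSPEN2 and 8 in PXGL WT against NaiveCult WT (70.6% of all genes there). DESeq2 called the same number of members with the fold threshold in 7 comparisons and 4 in place of 3 in PXGL WT against NaiveCult WT. Leaving out each library in turn gave 0 to 1 called members in siSPEN2, 9 to 10 in PXGL WT against Primed WT, 3 to 4 in PXGL WT against NaiveCult WT, 2 to 6 members whose response differed between both XIST depletions (2 without PXGL WT replicate 1, 3 without XIST KO replicate 1) and 5 to 7 between the SPEN mixes. It left the counts of called members at 0 in the other 4 perturbation comparisons and at 9 in NaiveCult WT against Primed WT. With the 6 compared libraries alone, the rises of A4GALT (adjusted p = 0.072) and B4GALT6 (0.11) with doxycycline were lost and ST3GAL1 passed in XIST KO (0.038). The pathway genes changed in XIST KO were 11, 18 with those 6 libraries alone and 7 to 8 without any 1 of them (8 without PXGL WT replicate 2 and 7 without each of the others). In XACT KO they were 2, but 5 with DESeq2 or no filter, 4 with the replicate block and 1 with library totals or with Primed WT in the fit. Same-numbered libraries did not deviate together (correlations from -0.068 to 0.045), so the numbers were not used as pairs. With the replicate block the counts of called members stayed at 0 in XIST KO, doxycycline, both SPEN mixes and XACT KO. Depth limits ST8SIA1, at 5 to 24 counts per naive group, and ST3GAL5, near 1 CPM, whose SE of up to 0.35 leaves small changes undetectable.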
